A study of Homo sapiens with 9 samples.

Results

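Chemokines are small secreted proteins that draw leukocytes along a gradient, and many of their genes are switched on by NF-κB, the transcription factor of inflammation. A set of 36 such genes was followed here: chemokine ligands, interleukins, colony-stimulating factors, the NF-κB subunits, the inhibitors that hold NF-κB back, and typical NF-κB target genes. The members were taken by gene symbol from the table of read counts. Of the 36 genes, 32 were among the 20777 genes listed, and 21 had enough reads to be tested. CXCL10, CXCL12, CCL20 and CSF3 were not listed and are not analysed here.

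The measurements come from RNA sequencing of LX-2, an established line of human hepatic stellate cells, the liver cells that lay down scar tissue once activated. All cells were of this line with the genotype label wide type, and each of the 3 groups held 3 libraries. The control libraries carried no treatment label. The TGF-β libraries came from cells given transforming growth factor-β, labelled Day 1, and the TGF-β + uridine libraries from cells given uridine as well, with the same day label. By the study's methods, TGF-β was applied at 25 ng/ml for 12 hours and the medium was then replaced by medium with uridine, a pyrimidine nucleoside. A uridine dose is stated for the study's other LX-2 experiments and is not repeated for the sequenced cells, and whether the TGF-β cells had a medium change is not given in the sources used here. Nor do they say that replicate libraries came from separate cultures, so the p-values measure the spread between these libraries, which may be technical. One cell line was used, and in RNA from bulk cells a smaller number of expressing cells and less RNA per cell cannot be told apart.

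NF-κB is a dimer of RELA, RELB, REL, NFKB1 or NFKB2 products. In resting cells it is bound by inhibitors such as IκBα, the product of NFKBIA, and receptors for TNF, interleukin-1 or bacterial products lead to kinases that have the inhibitor destroyed. The freed dimer enters the nucleus and drives chemokine genes, adhesion molecules and also NFKBIA and TNFAIP3, which shut the signal down again. Activated stellate cells are known as a source of chemokines in the injured liver.

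The promoters of the members are described first, because NF-κB is known to bind short sequences there. RefSeq promoter windows on GRCh38.p14, running from 250 bases before to 50 bases after the start of transcription, were at hand for 27 of the 36 genes. None was at hand for CXCL16, CX3CL1, CCL2, CCL5, IL18, RELB, NFKBIE, CSF1 and CSF3. The windows were searched on both strands for the 10-base NF-κB consensus. A window with at least 1 match was found for 16 of the 27 genes, against 7.09% of the 27305 genes with a window. In CXCL1, CXCL2, CXCL3 and CXCL5 the same run, GGGAATTTCCC, held an overlapping match on each strand. Stretches of 60 bases around the matches are shown 5′ to 3′ for these chemokines, for the 3 feedback genes NFKBIA, TNFAIP3 and TNIP1, and for VCAM1, with the matches in capitals.
CXCL1, chr4:73869289-73869348, plus strand: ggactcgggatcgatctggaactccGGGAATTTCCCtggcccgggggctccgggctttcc
CXCL2, chr4:74099239-74099298, minus strand: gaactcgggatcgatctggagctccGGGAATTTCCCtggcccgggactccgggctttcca
CXCL3, chr4:74038734-74038793, minus strand: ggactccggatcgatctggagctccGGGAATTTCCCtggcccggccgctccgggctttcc
CXCL5, chr4:73998734-73998793, minus strand: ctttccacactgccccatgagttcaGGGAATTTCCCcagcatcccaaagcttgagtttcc
NFKBIA, chr14:35404796-35404855, minus strand: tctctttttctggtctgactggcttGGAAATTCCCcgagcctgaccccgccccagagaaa
TNFAIP3, chr6:137867173-137867232, plus strand: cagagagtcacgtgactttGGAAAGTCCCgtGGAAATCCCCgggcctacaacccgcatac
TNIP1, chr5:151081042-151081101, minus strand: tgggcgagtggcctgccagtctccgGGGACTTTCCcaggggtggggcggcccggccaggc
VCAM1, chr1:100719655-100719714, plus strand: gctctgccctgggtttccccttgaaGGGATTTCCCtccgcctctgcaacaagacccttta
The windows of CXCL8, ICAM1 and RELA held no match, which says only that these letters are absent from the window. The listed genes with a match in their window differed widely in RNA level, from VCAM1 to NFKBIA, as the values below show.

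Levels were compared between genes in FPKM, the authors' read counts scaled by gene length and by the library's total, as means over all 9 libraries. RELA had the highest level of the set at 48.0 FPKM, followed by NFKBIA at 31.8 FPKM, the adhesion molecule ICAM1 at 23.1 FPKM, IL18 at 16.3 FPKM and NFKB2 at 13.2 FPKM. TNIP1 and TNFAIP2 came next, TNFAIP2 with 11.9 FPKM and TNIP1 above it by less than the spread of either gene over the libraries, and NFKB1 reached 6.76 FPKM. Among the ligands, CCL2 stood at 4.85 FPKM, CCL5 at 3.04 FPKM, CSF1 at 1.49 FPKM and CXCL16 at 0.952 FPKM. NFKBIB, NFKBIE, IL32 and RELB followed at 4.33, 3.02, 1.98 and 1.75 FPKM. Every other listed member had a mean of 0.124 FPKM or less, the level of IL1R1.

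**Figure D1:**
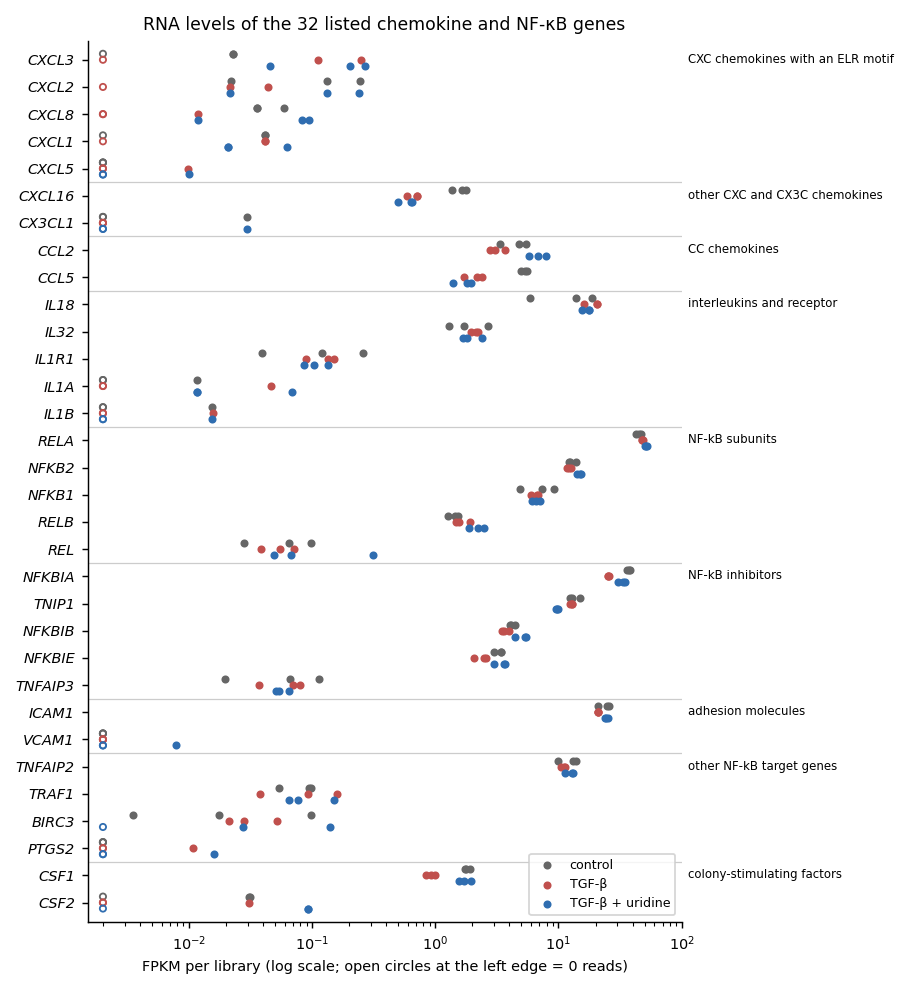
Each point is 1 library and gives the FPKM of a gene on a log scale, with genes grouped by role and open circles at the left edge for 0 reads. The NF-κB subunit RELA and the inhibitor NFKBIA sit at the right near 48.0 and 31.8 FPKM, and the neutrophil-attracting chemokines of the top rows lie below 1 FPKM in every library.

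The classical inducible ligands were almost silent. These are CXCL1, CXCL2, CXCL3, CXCL5 and CXCL8, which carry the ELR motif and attract neutrophils, and the cytokines IL1A, IL1B and CSF2. CXCL8 had 5, 3 and 3 reads in the control libraries, 0, 0 and 1 with TGF-β and 1, 7 and 8 with TGF-β + uridine. CXCL2 had 6, 11 and 1 reads in the controls, 2, 1 and 0 with TGF-β and 1, 6 and 11 with uridine added. CXCL3 had 1, 0 and 1 reads, then 0, 5 and 11, then 12, 9 and 2. None of the 3 genes passed the filter on low counts, so none was tested. CXCL1 had at most 3 reads in any library, CXCL5 and IL1B at most 1, CSF2 at most 3, CX3CL1 at most 4 and IL1A at most 6. The endothelial adhesion molecule VCAM1 had 1 read in 1 library, and PTGS2, the inducible cyclooxygenase, had 2 reads in a TGF-β library and 3 in a TGF-β + uridine library. A count of 0 allows up to 3 reads, or 0.0723 to 0.0740 in CPM, the read count relative to library size, so such differences were not detectable. This limit covers counting error only, because reads without molecular identifiers are not independent molecules.

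CXCL1, CXCL2 and CXCL3 are close copies of one another, and reads may have been split among them. Summed, they had 9, 11 and 4 reads in the controls, 4, 8 and 11 with TGF-β, and 14, 18 and 14 with TGF-β + uridine. The sum passed the filter on low counts only through the TGF-β + uridine libraries, where it was highest. With so few reads the values allow no statement on change. The summed log2 difference against TGF-β was 0.97 with a standard error (SE) of 0.54, and edgeR's quasi-likelihood test gave an adjusted p of 0.706.

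The 9 libraries held 40539751 to 41467124 reads on genes, so depth hardly differed, and the 32 genes took 0.0508% to 0.0576% of them. The control libraries were less alike than the others. The slope of log2 CPM on the GC content of genes was 13.8, 7.44 and 4.08 in control libraries 1, 2 and 3, from 7.85 to 8.72 with TGF-β and from 5.49 to 10.5 with uridine added, in log2 units per unit of GC fraction. Stellate cell and fibroblast markers were read in all libraries with a summed level of 1376 to 1506 CPM in controls, 2347 to 2393 CPM with TGF-β and 2135 to 2182 CPM with uridine added. Among these markers, COL1A2 had at most 1 read and PDGFRA and LRAT were not listed, so the label rested on COL1A1, PDGFRB, VIM, TIMP1, ACTA2, TAGLN and DES. Of 8 leukocyte markers 5 were listed, with a summed level of 29.6 to 31.7, 36.9 to 39.2 and 31.4 to 38.2 CPM, and CD68 alone passed 20 reads. ITGAM had 1 to 7 reads, and PTPRC, CD3E and TYROBP were not listed. The part of the marker differences in the results was not tested. The GC slopes were a covariate in a further fit given below, and their part in single results was not worked out.

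From 1 model of all 9 libraries, 3 differences were read. The TGF-β effect sets the TGF-β libraries against the controls, the uridine effect sets TGF-β + uridine libraries against those with TGF-β alone, and the combined effect sets them against the controls. Any pair of these differences has a group in common, so their values stand side by side and are not independent. Calls rest on an adjusted p under 0.05 over all 13384 tested genes, and per-library values are CPM after TMM scaling.

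With TGF-β 3 of the 21 tested genes were lower and none was higher. The genes that fell were CCL5, the T cell and monocyte chemokine RANTES; CXCL16, a membrane-bound chemokine and scavenger receptor; and CSF1, the growth factor of macrophages. Over all tested genes 2.42% were called higher and 0.964% lower. By the unadjusted p under 0.05, 1 member was higher and 5 were lower, beside 12.1% of all genes in both directions. The groups did not overlap for 9 members, 8 of them lower and 1 higher with TGF-β, where 17.7% of all tested genes did not overlap. The median log2 change of the 21 genes was -0.102, and that of all tested genes was -0.0529.

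CCL5 (chr17:35871491-35880793, minus strand, GRCh38) had 8.41, 7.02 and 5.62 CPM in the control libraries, 2.29, 2.86 and 3.09 CPM with TGF-β and 1.74, 2.51 and 2.33 CPM with TGF-β + uridine. Every control library was above all 6 treated libraries. CCL5 fell 2.55-fold with TGF-β (log2 change -1.35, SE 0.25, edgeR adjusted p = 0.0173). In the combined effect it fell by 1.68 on the log2 scale (SE 0.25, edgeR adjusted p = 0.00578). Between TGF-β + uridine and TGF-β the log2 difference was -0.32, with a 95% interval of -0.88 to 0.23.

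CXCL16 (chr17:4733526-4739922, minus strand, GRCh38) had 4.83, 4.07 and 2.81 CPM in the controls, 1.46, 1.72 and 1.71 CPM with TGF-β and 1.49, 1.65 and 1.11 CPM with uridine added. The lowest control was above the highest treated library. CXCL16 fell 2.39-fold with TGF-β (log2 change -1.26, SE 0.28, edgeR adjusted p = 0.0439) and was 2.76-fold lower in the combined effect (log2 change -1.46, SE 0.28, edgeR adjusted p = 0.0175). The uridine effect was -0.20 on the log2 scale, with a 95% interval of -0.83 to 0.42. Its exons share 85 bases with MED11 on the opposite strand, a gene with 338 to 480 reads per library, and the strand setting of the counting is not given in the sources used here.

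CSF1 (chr1:109910242-109930992, plus strand, GRCh38) had 10.2, 8.79 and 7.40 CPM in the controls and 4.53, 4.02 and 4.75 CPM with TGF-β. With TGF-β + uridine it had 8.98, 8.91 and 6.89 CPM, within or just under the control range and above every TGF-β library. CSF1 fell 1.98-fold with TGF-β (log2 change -0.99, SE 0.19, edgeR adjusted p = 0.0262). The uridine effect was 1.86-fold, with a log2 difference of 0.90 (SE 0.19, unadjusted p = 0.00125, edgeR adjusted p = 0.233), and did not pass over all genes. In the combined effect the log2 difference was -0.09, with a 95% interval of -0.52 to 0.34. An exact two-sided permutation test of CPM gave p = 0.1 for CCL5, CXCL16 and CSF1 with TGF-β, the smallest value that 3 libraries against 3 allow.

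The 3 calls were lost under several settings. In a fit of only the control and TGF-β libraries the edgeR adjusted p was 0.0583 for CCL5, 0.108 for CXCL16 and 0.0939 for CSF1. None passed without control library 2 or without any single TGF-β library, and CCL5 alone passed without TGF-β + uridine library 1. Of the 9 fits that left out 1 library, CCL5 passed in 5, CSF1 in 4 and CXCL16 in 2. Of all 19 other settings they passed in 13, 12 and 9, in the same order. The log2 changes in the fits that each leave out 1 library stayed between -1.49 and -1.21 for CCL5, -1.45 and -1.08 for CXCL16 and -1.10 and -0.87 for CSF1.

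**Figure D2:**
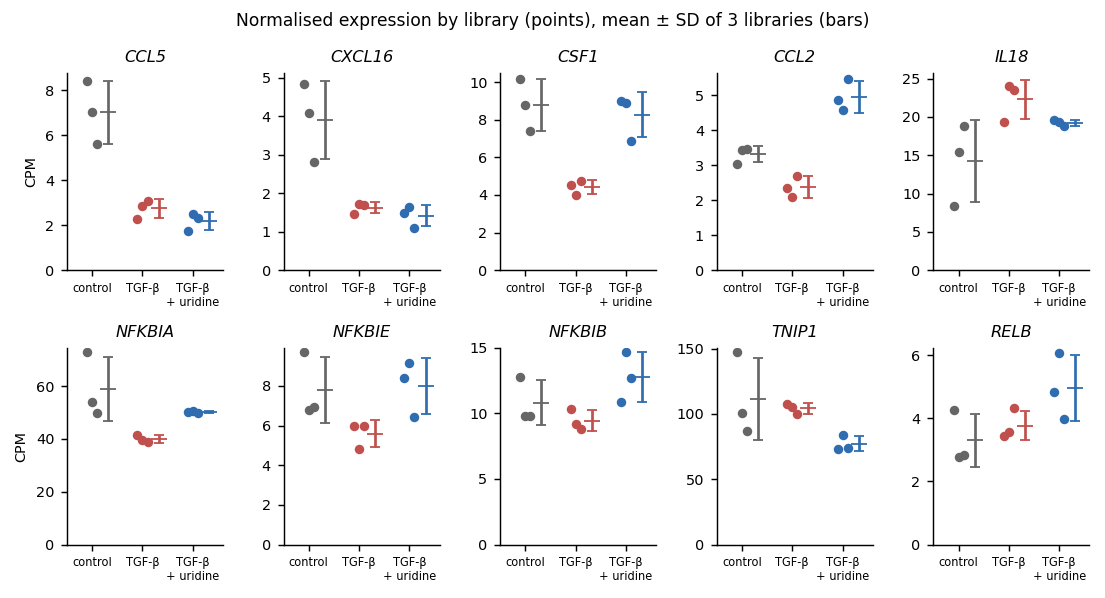
Points are the CPM of single libraries, and the line with caps is the mean ± SD of 3 libraries, for the 10 members with an unadjusted p under 0.05 in any comparison. CCL5 and CXCL16 lie low in both treated groups, whereas CSF1 and CCL2 lie lowest in the TGF-β libraries.

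CCL2, the monocyte chemokine MCP-1 (chr17:34255218-34257203, plus strand, GRCh38), had 3.05, 3.43 and 3.46 CPM in the controls, 2.34, 2.08 and 2.70 CPM with TGF-β and 4.86, 4.57 and 5.47 CPM with TGF-β + uridine. In CPM the 3 groups did not overlap, with the TGF-β libraries lowest and the TGF-β + uridine libraries highest. In FPKM control library 1, at 3.38, was below TGF-β library 3, at 3.67, so controls and TGF-β libraries overlapped. The TGF-β + uridine libraries were highest in FPKM as well. The uridine effect was 2.09-fold, with a log2 difference of 1.06 (SE 0.20, unadjusted p = 0.000479, edgeR adjusted p = 0.164). The TGF-β effect was -0.48 (SE 0.20, unadjusted p = 0.0387, edgeR adjusted p = 0.353), and the combined effect was 0.58 (SE 0.20, edgeR adjusted p = 0.150) on the log2 scale. None of these passed the adjusted threshold. Under 19 other settings the log2 uridine difference ranged from 0.90 to 1.17 and its adjusted p from 0.000612 to 0.729, and it passed in 6.

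For the uridine effect edgeR called 0 of the 21 tested members, beside 0% of all genes called higher and 0.0448% called lower. By the unadjusted p under 0.05, 5 members were higher (CCL2, CSF1, NFKBIA, NFKBIB and NFKBIE) and 1 was lower (TNIP1), beside 8.79% of all tested genes. DESeq2 called 2 members, CCL2 and CSF1, and limma on log2 FPKM called 4, CCL2, CSF1, NFKBIA and TNIP1. Without control library 1, edgeR called 3, CCL2, CSF1 and TNIP1. The shares of all genes above belong to the edgeR model of all 9 libraries and cannot be set against the counts of these other fits. The groups did not overlap for 9 members, 8 higher and 1 lower with uridine, where 25.6% of all tested genes did not overlap. The median log2 difference of the members was 0.129, and that of all tested genes was 0.0215.

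For the combined effect 2 members were lower, CCL5 and CXCL16, and none was higher, with 2.89% of all tested genes called higher and 2.44% lower. By the unadjusted p under 0.05, 2 were higher (CCL2 and RELB) and 3 lower (CCL5, CXCL16 and TNIP1), beside 17.6% of all genes. CCL5 passed in all 19 other settings and CXCL16 in 15. Without control library 2, TGF-β + uridine library 1 or TGF-β + uridine library 3, CCL5 was the 1 member called. Without control library 1 there were 4, CCL5, CXCL16, NFKB2 and RELB. The shares of all genes above do not apply to these fits. Non-overlapping groups were found for 4 members, against 19.7% of all tested genes. The median of the 21 log2 changes was 0.00693, and that of all tested genes was -0.0108.

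**Figure D3:**
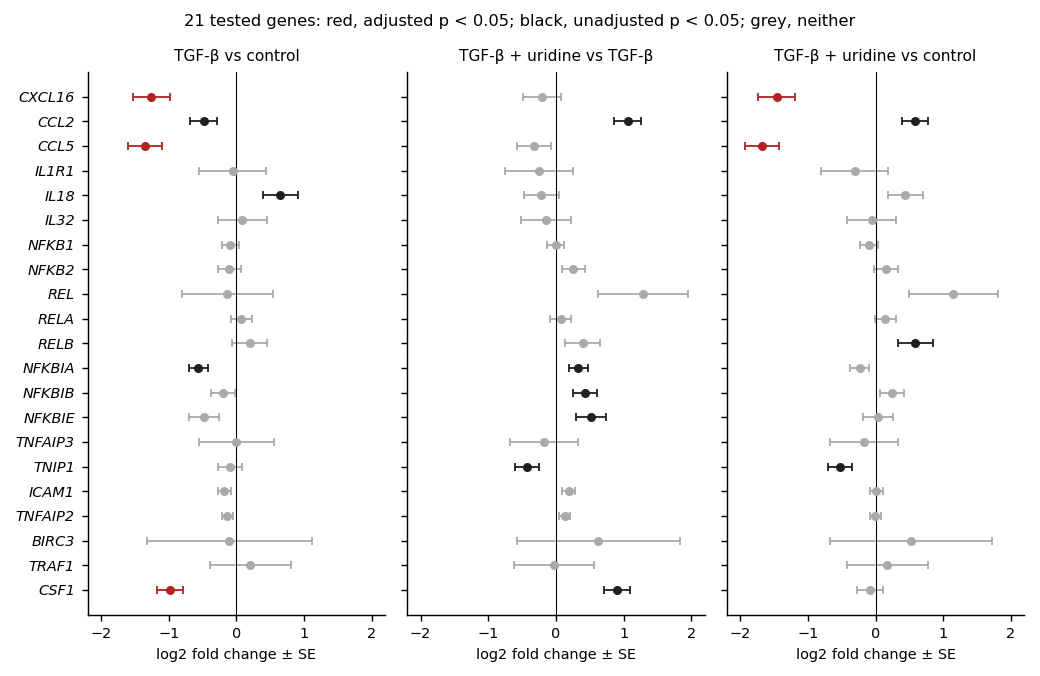
Each row is 1 of the 21 tested genes and each panel 1 comparison, with the log2 fold change as a point and its standard error as a bar. Red marks the calls, CCL5, CXCL16 and CSF1 on the left and CCL5 and CXCL16 on the right, and the middle panel holds none.

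Among the interleukins, IL18, an activator of T and natural killer cells, had 8.32, 15.5 and 18.8 CPM in the controls, 19.3, 24.0 and 23.5 CPM with TGF-β and 19.6, 19.3 and 18.8 CPM with uridine added. Control library 1 was far below the other 8, and in CPM the TGF-β libraries were above all controls. In FPKM they were not, with TGF-β library 1 at 16.2 and control library 3 at 18.8. The log2 TGF-β difference was 0.65 (SE 0.26, unadjusted p = 0.0334, edgeR adjusted p = 0.322), and without control library 1 it was 0.37. IL32, a proinflammatory cytokine, ranged from 1.45 to 4.18 CPM and IL1R1, the interleukin-1 receptor, from 0.326 to 1.51 CPM, both ranges being those of the controls.

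No NF-κB subunit was called in the model of all 9 libraries, while limma on log2 FPKM called RELA and RELB, both higher, in the combined effect. RELA, the main activating subunit, was at 117 ± 27.2 CPM in controls, 123 ± 1.66 CPM with TGF-β and 129 ± 12.7 CPM with uridine added (SD, n = 3). Its 95% intervals were -0.29 to 0.43 for the TGF-β effect and -0.29 to 0.43 for the uridine effect on the log2 scale. In FPKM, scaled by the library total alone, RELA was at 44.9 ± 2.48 in controls, 47.9 ± 0.416 with TGF-β and 51.3 ± 1.12 with uridine added (SD, n = 3). On that scale its 3 groups did not overlap, whereas in CPM they did. NFKB1, which encodes p50 and its precursor, had a uridine effect of -0.01 with a 95% interval of -0.30 to 0.28. For NFKB2, the p52 precursor of the non-canonical pathway, the uridine effect was 0.25 with an interval of -0.14 to 0.64.

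RELB, the partner of p52, had 4.27, 2.79 and 2.85 CPM in the controls, 3.45, 3.56 and 4.31 CPM with TGF-β and 4.84, 6.06 and 3.98 CPM with TGF-β + uridine. Its groups overlapped in every comparison. The log2 combined effect was 0.59 (SE 0.25, unadjusted p = 0.0465, edgeR adjusted p = 0.272), and without control library 1 it was 0.79 with an adjusted p of 0.0483. REL, a subunit best known from lymphocytes, had 13 to 46 reads in 8 libraries and 145 in TGF-β + uridine library 3, and its log2 uridine effect was 1.28 (SE 0.67, edgeR adjusted p = 0.662).

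Of the inhibitors, NFKBIA (chr14:35401511-35404749, minus strand, GRCh38) had 72.9, 54.2 and 49.9 CPM in the controls, 41.6, 39.5 and 38.9 CPM with TGF-β and 50.2, 50.7 and 49.9 CPM with TGF-β + uridine. The TGF-β libraries were below all 6 others. The log2 TGF-β effect was -0.56 (SE 0.14, unadjusted p = 0.00319, edgeR adjusted p = 0.0749), and the uridine effect was 0.33 (SE 0.14, unadjusted p = 0.0434, edgeR adjusted p = 0.543). In FPKM, which are scaled by the library total alone, NFKBIA was at 37.1 ± 1.19 in the controls, 25.4 ± 0.420 with TGF-β and 32.8 ± 2.28 with uridine added (SD, n = 3). On that scale the control libraries of NFKBIA were close together and its 3 groups were apart. Other genes differed, and the IL18 controls ran from 5.91 to 18.8 FPKM. In CCL2, IL18, ICAM1 and TNFAIP2 the control and TGF-β groups overlapped in FPKM, although they were apart in CPM. The TGF-β effect of NFKBIA passed in 6 of 19 other settings.

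NFKBIE, which encodes IκBε, had 9.69, 6.76 and 6.92 CPM in the controls, 5.96, 4.82 and 5.99 CPM with TGF-β and 8.37, 9.17 and 6.44 CPM with uridine added. The TGF-β libraries were again the lowest. Its log2 TGF-β effect was -0.48 (SE 0.22, edgeR adjusted p = 0.444) and its uridine effect 0.52 (SE 0.22, unadjusted p = 0.0434, edgeR adjusted p = 0.543). NFKBIB, which encodes IκBβ, had 12.8, 9.83 and 9.79 CPM, then 10.3, 9.17 and 8.82 CPM, then 10.9, 14.7 and 12.7 CPM. All 3 uridine libraries were above the TGF-β libraries, with a log2 uridine effect of 0.43 (SE 0.18, unadjusted p = 0.0378, edgeR adjusted p = 0.520). NFKBIB shares 40 exon bases with SIRT2 on the opposite strand, which had 1081 to 1648 reads per library.

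TNIP1, whose product binds TNFAIP3 (A20) and restrains NF-κB, had its lowest values with uridine. It had 147, 100 and 86.7 CPM in the controls, 108, 105 and 99.9 CPM with TGF-β and 73.4, 83.9 and 74.1 CPM with TGF-β + uridine. The uridine libraries were below the other 6. The log2 uridine effect was -0.43 (SE 0.18, unadjusted p = 0.0383, edgeR adjusted p = 0.522) and the combined effect -0.53 (SE 0.18, unadjusted p = 0.0159, edgeR adjusted p = 0.150). In FPKM it was at 13.4 ± 1.34 in the controls, 12.8 ± 0.279 with TGF-β and 9.71 ± 0.243 with uridine added (SD, n = 3). TNFAIP3 itself had 7 to 40 reads, with both ends of the range in control libraries.

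No adhesion molecule or further target gene was called. ICAM1, the leukocyte adhesion molecule, was at 71.3 ± 4.89 CPM in controls, 62.9 ± 1.55 CPM with TGF-β and 71.6 ± 5.24 CPM with uridine added (SD, n = 3). Its TGF-β libraries lay below all others in CPM. In FPKM control library 1, at 21.05, was just below TGF-β library 1, at 21.14. The log2 TGF-β effect of -0.18 had a 95% interval of -0.40 to 0.04. The uridine effect of ICAM1 was 0.19, with an interval of -0.03 to 0.40. TNFAIP2 was at 64.3 ± 2.34, 58.5 ± 1.10 and 64.0 ± 2.08 CPM in the same order (SD, n = 3), with a log2 TGF-β effect of -0.14 and a 95% interval of -0.32 to 0.05. TRAF1 had 7 to 29 reads and BIRC3, an inhibitor of cell death, 0 to 40 reads, with overlapping groups.

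The spread of the control libraries went with GC content. For 7 of the 21 genes control library 3 was above control library 1, and their longest transcripts had 34.8% to 50.1% GC. For the other 14 genes it was below, and these had 53.1% to 65.4% GC. The log2 ratio of the 2 libraries ran from -1.53 for IL32 to 4.31 for BIRC3, and was 2.21 for IL1R1, 1.32 for REL and 1.17 for IL18. With each library's GC slope as a covariate, edgeR called 7 members for the TGF-β effect (CCL5, CSF1, CXCL16, ICAM1, IL18, NFKBIA and NFKBIE), 8 for the uridine effect (CCL2, CSF1, ICAM1, NFKB2, NFKBIA, NFKBIB, NFKBIE and TNIP1) and 9 for the combined effect. In the whole table this covariate raised the calls as well, from 453 to 2715, from 6 to 2554 and from 714 to 4162 genes. 

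**Figure D4:**
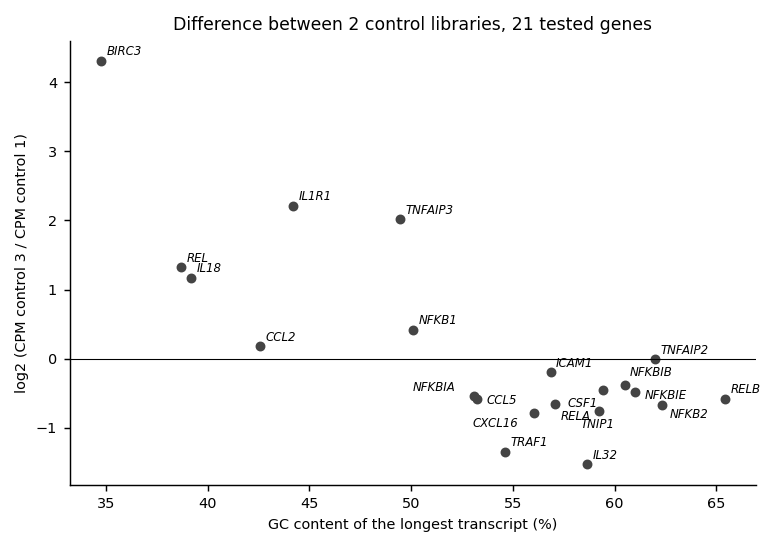
Each point is 1 of the 21 tested genes, with the GC content of its longest transcript in percent on the horizontal axis and the log2 ratio of CPM between control libraries 3 and 1 on the vertical axis. The 7 genes at 50.1% GC or less lie above 0, up to BIRC3 at 4.31, and the other 14 lie below 0.

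The other genes of the pathway were read from a list of 92 chemokines, their receptors, receptors of the NF-κB pathway, adaptors, kinases, feedback genes and induced genes. Of these, 70 were listed and 43 tested. With TGF-β 3 rose (CSF1R, ACKR3 and IER3) and 2 fell (C3 and MAP3K14), where 2.42% of all tested genes were called higher and 0.964% lower. For the uridine effect the edgeR model of all 9 libraries called none. By the unadjusted p under 0.05, 2 were higher, MAP3K14 and the adaptor kinase IRAK2, beside 8.79% of all tested genes. DESeq2 called 1. In the combined effect 3 were higher (ACKR3, CSF1R and IER3) and 1 was lower (C3), beside 2.89% and 2.44% of all tested genes. Without control library 1 the counts were 8 for the TGF-β effect, 1 for the uridine effect and 10 for the combined effect, and without control library 2 or without TGF-β + uridine library 1 or 2 the combined count was 2. The shares of all genes above do not apply to the fits without a library. Median log2 values of the 43 genes were -0.072, 0.144 and 0.105 in the 3 comparisons of the main model. No gene was called among the 5 tested upstream receptors, the 7 tested feedback genes and the single further chemokine tested, and 1 was called among the 19 adaptors and kinases.

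CSF1R, the receptor for the product of CSF1, had 12.9, 9.43 and 7.95 CPM in the controls, 44.9, 38.4 and 41.1 CPM with TGF-β and 35.3, 37.1 and 32.3 CPM with uridine added. It rose 4.11-fold with TGF-β (log2 change 2.04, SE 0.18, edgeR adjusted p = 0.000405), while its ligand gene fell. ACKR3, a scavenging receptor for CXCL12, had 0.385, 0.357 and 0.147 CPM in the controls, 7 to 15 reads, and 1.94 to 2.87 CPM with TGF-β. The log2 change was 2.96 (SE 0.39, edgeR adjusted p = 0.00353). Under 18 other settings it passed each time, but its size ranged from 0.78 to 3.19. ACKR3 passed the filter on low counts through the treated libraries, and the size of its change rests on few control reads. All treated libraries of both genes were above all controls, and neither uridine effect passed.

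IER3, an immediate early gene under NF-κB and other factors, had 75.9, 56.6 and 51.5 CPM in the controls and rose to 151, 141 and 138 CPM with TGF-β (log2 change 1.22, SE 0.15, edgeR adjusted p = 0.00259). With TGF-β + uridine it had 115, 124 and 101 CPM, below every TGF-β library, at a log2 difference of -0.34 (edgeR adjusted p = 0.575). C3, the central complement protein, had 295, 325 and 358 CPM in the controls, 201, 195 and 181 CPM with TGF-β and 224, 220 and 223 CPM with uridine added. C3 fell 1.69-fold with TGF-β (log2 change -0.76, SE 0.10, edgeR adjusted p = 0.00302).

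MAP3K14 encodes NIK, the kinase of the non-canonical pathway that processes the NFKB2 product. It had 42.1, 35.8 and 35.1 CPM in the controls, 26.7, 26.2 and 27.4 CPM with TGF-β and 41.1, 42.7 and 37.6 CPM with uridine added. The TGF-β libraries were below all others. It fell 1.41-fold with TGF-β (log2 change -0.49, SE 0.11, edgeR adjusted p = 0.0483), a call that passed in 8 of 19 other settings and in 2 of the 9 fits that left out 1 library. The uridine effect was 1.51-fold, at a log2 difference of 0.60 (SE 0.11, unadjusted p = 0.000443, edgeR adjusted p = 0.164). It did not pass in the model of all 9 libraries. It passed in 6 of 19 other settings and in 1 of the 9 fits that left out 1 library, with log2 differences from 0.55 to 0.65.

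**Figure D5:**
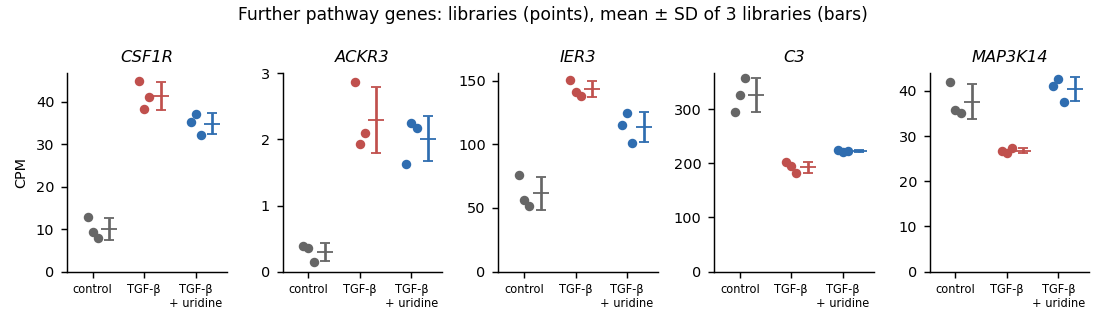
Points are the CPM of single libraries with the mean ± SD of 3 libraries, for the 5 further pathway genes called in any comparison. CSF1R, ACKR3 and IER3 lie high in both treated groups, C3 lies low in both, and MAP3K14 lies low in the TGF-β libraries alone.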

How the data were processed

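RNA of 9 LX-2 libraries was analysed, 3 per group, with groups taken from the sample labels. The authors deposited read counts per gene symbol, not normalized, and FPKM values for the same 20777 genes. FPKM equalled count divided by library total and a fixed gene length. The submitters' processing notes name fastp, HISAT2, HTSeq, R 3.2.0 and GRCh38.p13. The annotation and the strand setting of the counting are not given in the sources used here.

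Counts were filtered with filterByExpr, which left 13384 genes, scaled by TMM and tested with edgeR 4.0.16 (glmQLFit, glmQLFTest) in R 4.3.3, in 1 model of condition over all 9 libraries. Tests were two-sided with Benjamini-Hochberg adjustment over all tested genes, and the standard error is the log2 change divided by the root of F. Depth was 40539751 to 41467124 counts, and the common biological coefficient of variation was 0.289. An exact permutation test was run on the CPM of single genes. The scripts were tested on simulated data.

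Values in every library are given for members with an adjusted or unadjusted p under 0.05 in any comparison, and pathway genes are named where an adjusted p was under 0.05. ICAM1, TNFAIP2, the other NF-κB subunits, IRAK2 and the sparse ligands were described beyond that rule. The members and lists were chosen with earlier results of these data known. Counts of replicate pairs differed by more than sampling noise (chi-square per degree of freedom 4.18 to 294), so no pair was treated as 1 library deposited in duplicate. This does not show that the libraries came from separate cultures.

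Alternatives were DESeq2 1.42.0, other normalizations (RLE and upper quartile), no filter or at least 10 counts in every library, a log2 change of at least 1, a replicate block, only the 2 groups compared, limma 3.58.1 on log2 FPKM with a pseudocount of 1 or 0.1 and a mean of at least 0.5 FPKM, a GC covariate and each library left out. Gene positions and GC content came from GENCODE on GRCh38 by symbol (GC for 92.0% of tested genes, 21 of 21 members). The use of FPKM as deposited for non-overlapping groups was chosen after seeing the data.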

Additional observations from a re-analysis of the deposited data

How the results depend on the processing

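The count of members called for the TGF-β effect was 3 and became 0 with the replicate block, 0 with only the 2 groups compared, 7 with the GC covariate and 0 to 4 with 1 library left out. For the uridine effect it was 0 and became 8 with the GC covariate, 4 with only the 2 groups compared, 2 with DESeq2, 4 with either limma fit and 0 to 3 with 1 library left out. For the combined effect it was 2 and became 9 with the GC covariate, 1 with only the 2 groups compared, 5 with either limma fit and 1 to 4 with 1 library left out. Of the further pathway genes, 5 were called for the TGF-β effect, 3 with a log2 change of at least 1, 14 with the GC covariate, 10 with either limma fit and 4 to 8 with 1 library left out. For the uridine effect 0 were called, 14 with the GC covariate, 1 with only the 2 groups compared, 1 with DESeq2, 4 with either limma fit and 0 to 1 with 1 library left out. For the combined effect 4 were called, 2 with a log2 change of at least 1, 17 with the GC covariate, 2 with only the 2 groups compared, 7 with limma on log2(FPKM + 1) and 2 to 10 with 1 library left out. Members with non-overlapping groups in the combined effect numbered 4 in CPM and 8 in FPKM as deposited. Apart from the GC covariate, the numbers over all genes under these other settings are not given here. The counts are therefore not read as a trait of the members. Among single genes the sign changed for TNIP1 (TGF-β effect 0.15 without control replicate 1, range -0.25 to 0.15 with 1 library left out), CSF1 (combined effect 0.01 without control replicate 1, and 0.0273 without TGF-β + uridine replicate 3, lowest value -0.20), NFKBIE (combined effect -0.05 without control replicate 2, -0.04 without control replicate 3, and -0.0750 without TGF-β + uridine replicate 2, highest value 0.20) and ACKR3 (uridine effect 0.00126 without TGF-β replicate 1, lowest value -0.30), none of them a called value. Over all settings, 743 of the single-gene values kept direction and side of the threshold, 49 no longer passed, 53 passed only there and 7 changed sign. The cause of these changes was not tested.

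Libraries with the same replicate number did not all deviate together (correlation of deviations from group means -0.21 to 0.558, the highest for control 3 and TGF-β + uridine 3), and 3 of 9 libraries correlated best with their own number. Under the replicate block the TGF-β effect kept its log2 changes, -1.36 for CCL5, -1.22 for CXCL16 and -0.97 for CSF1, with adjusted p of 0.0564, 0.0870 and 0.0656, and MAP3K14 lost its call; no other call of a named gene changed. At this depth, members with under 20 reads per library allow no statement on change.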
